A study of Mus musculus with 15 samples.

Results

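RNA-Seq libraries from 5 mouse tissues were examined for Hsph1, the HSP110 protein of the cytosol, and 9 other genes of the heat shock protein families: Hspa1a, Hspa1b and Hspa8 (HSP70), Dnajb1 (a J-protein), Hsp90aa1 and Hsp90ab1 (HSP90), Hspb1 (a small heat shock protein), and Hspd1 and Hspe1 (the chaperonin and its co-chaperonin). The genes were chosen by name, with earlier results of these data known, and a locus was taken when its gene name, split at commas, was one of the 10. The study had picked Hsph1 for follow-up in the colon from these same RNA-Seq data, for a robust change with restriction. Its change in the colon is therefore not independent of that choice. All 10 were found, each as 1 locus, among 23589 loci with a gene name and 33603 loci in all. The proteins of Hspd1 and Hspe1 work in the mitochondrial matrix, so the term cytosolic covers 8 of the 10. The mice were male C57BL/6. The AL group was fed ad libitum and was 5 months of age. The DR group was restricted from 4 months of age for 1 month to 60% of the food the AL mice ate, a restriction of 40%, and was also 5 months of age. The DR-AL group had the same month of restriction followed by 2 months of ad libitum feeding and was 7 months of age, so diet and age cannot be told apart in any comparison with DR-AL. Liver, epididymal fat, colon (mucosa), hypothalamus and hippocampus were sampled, and RNA of 5 mice was pooled into 1 library per tissue and diet, 15 libraries in all. The comparison of DR with AL asks what a month of restriction did to a gene, and the comparisons of DR-AL with AL and with DR ask whether a change was still seen after ad libitum feeding returned.

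Heat shock proteins are molecular chaperones, and many of their genes are transcribed when the factor HSF1 binds heat shock elements, inverted repeats of the unit GAA, in their promoters. HSP70 proteins bind unfolded segments of other proteins in a cycle driven by ATP, in which a J-protein such as Dnajb1 delivers the client and starts hydrolysis and an HSP110 protein such as Hsph1 exchanges ADP for ATP and so releases it. HSP90 proteins take clients from HSP70 and finish the folding of kinases and steroid receptors, and small heat shock proteins hold unfolded proteins without ATP.

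The libraries held between 21767088 and 40500130 counts on named loci, with a median of 26554699. Levels are given as counts scaled to a total of 1000000 over the named loci of a library (CPM). No group had a replicate library, so no difference between diets could be set against the spread between mice. A gene was called higher or lower when the Z test of the study's methods, which allows for counting error alone, gave an adjusted p under 0.05 and the log2 fold change was at least 0.32 in either direction, a ratio of 5/4. Calls on the FPKM scale, rescaled or not, did not require the Z test to pass. With a pseudocount of 0.1 Hspa1a was called lower in DR than in AL liver, where the Z test gave an adjusted p of 0.255. Ratios carry exact Clopper-Pearson 95% intervals that cover counting error only, and every value within a tissue rests on 1 library per diet.

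The tissues showed the markers of their labels, with gaps, and some showed markers of other cells as well. The gene named for each list of markers is the most abundant over the 3 libraries of the tissue, not in each of them. For the 7 colon epithelium markers it was Krt8, at 6022, 7078 and 6231 CPM in AL, DR and DR-AL colon, the order of diets used throughout. The 5 hepatocyte markers with a named locus summed to 26389, 32402 and 32142 CPM in the liver, although Alb was listed at 0 in all 15 libraries. The 7 genes typical of hypothalamic neurons summed to 1002, 787 and 724 CPM in the hypothalamus, with Avp at 471, 267 and 158 CPM. In the same libraries the 6 genes typical of telencephalic neurons summed to 41.1, 88.3 and 74.0 CPM, with Prox1 at 35.9, 29.7 and 28.6 CPM, and 5 of 6 were called higher in DR than in AL. The 4 oligodendrocyte markers, with Mbp at 1852, 2097 and 2996 CPM, summed there to 3201, 3560 and 4720 CPM. In the hippocampus the oligodendrocyte markers summed to 4952, 4079 and 4377 CPM. The 6 telencephalic markers summed to 1917, 1942 and 1732 CPM in the hippocampus, with Slc17a7 at 1288, 1312 and 1200.4 CPM, and the 5 choroid plexus markers, with Ttr at 2693, 1641 and 2603 CPM, to 2893, 1771 and 2818 CPM, 5 of 5 lower in DR than in AL. In the colon the 7 smooth muscle markers, with Tagln at 19.5, 20.9 and 8.27 CPM, summed to 69.1, 92.3 and 37.5 CPM and the 6 immune cell markers, with Lyz2 at 20.8, 13.1 and 26.2 CPM, to 36.5, 19.3 and 50.6 CPM. The 5 skeletal muscle markers, with Acta1 at 6.87, 60.9 and 75.4 CPM, summed to 20.1, 130 and 200 CPM in the liver. The part of these cells in the changes of the 10 genes was not tested.

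In epididymal fat, marker genes of other organs were detected at levels that differed between diets. The 6 adipocyte markers, with Fabp4 at 17582, 12313 and 10570.3 CPM, summed to 29264, 22436 and 18282 CPM. The 8 epididymis markers summed to 918, 3384 and 5510 CPM, with Crisp1 at 846, 2802 and 4584 CPM. The 7 testis germ cell markers summed to 3.55, 575 and 2942 CPM, with Prm2 at 1.64, 171 and 771 CPM, and 7 of 7 were higher than in AL in each of the other groups. Hepatocyte markers summed to 3621 CPM in AL fat against 34.8 in DR and 5.85 in DR-AL, with Apoa1 at 1221, 11.5 and 2.96 CPM. The 7 smooth muscle markers, with Myh11 at 504, 1433 and 313 CPM, summed to 1338, 3880 and 1303 CPM. The 5 skeletal muscle markers, with Acta1 at 93.6, 161 and 105 CPM, summed to 101, 469 and 109 CPM, with 5 of 5 higher in DR and 3 of 5 lower in DR-AL than in AL. All of the fat results below stand beside these values, and the part of other organs' RNA in them was not tested.

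Hsph1 (XLOC_024083, chromosome 5, 149616843 to 149636498 on the minus strand of GRCm38) was highest in the brain by CPM. It ranged from 312 to 328 CPM in the hypothalamus and from 268 to 305 CPM in the hippocampus, and these ranges lay apart from each other and from those of the other tissues. The liver ranged from 45.5 to 98.8 CPM, the colon from 18.1 to 80.0 CPM and fat from 17.6 to 48.3 CPM. These ranges overlapped over the diets, but the order of liver, colon and fat by CPM was the same within each diet. Colon and fat were close in AL, at 18.1 and 17.6 CPM. On the FPKM scale the hippocampus, at 54.8, 68.7 and 70.3 FPKM, stood above the hypothalamus, at 49.6, 50.4 and 52.9 FPKM, and DR-AL liver, at 56.1 FPKM, stood above all 3 hypothalamus libraries and AL hippocampus. The highest library was 4.42 times the lowest in the colon, 2.75 times in fat and 2.17 times in the liver, but 1.05 times in the hypothalamus and 1.14 times in the hippocampus.

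Among the 10 genes, levels were compared per kilobase within each tissue, on the deposited FPKM scale. Hspa8, the constitutive HSP70, ranked highest and Hsp90ab1, the constitutive HSP90, ranked next in all 5 tissues by median FPKM, for example 830 and 404 FPKM in the colon and 1559 and 699 FPKM in the liver. Hsp90aa1, the stress-inducible HSP90, ranked 3 of 10 in both brain tissues, with a median of 370 FPKM in the hippocampus, and 5 of 10 in liver, fat and colon. Hsph1 ranked between 6 and 8 of 10 in every tissue. The stress-inducible HSP70 genes stood near the bottom, with Hspa1a at a median of 0.545 FPKM and Hspa1b at 10.6 FPKM in the liver.

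In the colon 10 of 10 genes were at their lowest in AL and at their highest in DR-AL. Some of these orders lie within counting error. Hspb1 had 24, 34 and 33 counts, Dnajb1 stood at 65.1 and 66.2 CPM in AL and DR, and Hspe1 at 55.5 and 57.0 CPM in DR and DR-AL. For comparison, 35.0% of the 13714 genes that averaged 10 counts or more were lowest in AL and 27.1% were highest in DR-AL. These shares were counted separately, and no share is given for genes that met both. The summed level of the 10 was 2482, 3367 and 4699 CPM. In DR against AL 7 of 10 were called higher, where 9.04% of the 18242 genes tested were, and 0 were lower, against 10.6% of genes. In DR-AL against AL 8 of 10 were higher, against 5.83%, and 0 lower, against 8.5%. In DR-AL against DR 5 of 10 were higher, against 6.78%, and 0 lower, against 7.67%. Hsph1, which the study had picked from these data, is in each of the 3 counts of genes called higher. The median log2 fold change of the 10 was 0.46, 0.87 and 0.37 in these comparisons, and that of all genes 0.00, -0.01 and -0.02. These counts depend on the variance allowed: with a dispersion that edgeR estimated over the 3 colon libraries, differences between diets included, its exact test called 1 (Hsph1), 3 (Hsph1, Hspa1a and Hspa1b) and 0 of the 10. Here and for the other tissues, the share of all genes called by this exact test is not given. Its counts therefore do not compare the 10 with other genes.

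In the liver the 10 genes were closer to AL in DR than in DR-AL by their median. In DR against AL 1 of 10, Dnajb1, was higher, against 18% of the 17408 genes tested, and 0 were lower, against 9.92%. Against AL, DR-AL had 6 of 10 higher, against 15% of genes, and 0 lower, against 15.8%. In DR-AL against DR 6 of 10 were higher, against 16.9%, and 0 lower, against 24%. DR-AL was the highest library for 9 of 10, all but Hsp90ab1, where 34.7% of genes were highest in DR-AL. The median of the 10 was -0.15, 0.72 and 0.77 beside 0.10, 0.00 and -0.11 for all genes. With the estimated dispersion the counts were 0, 0 and 1 (Hspa1b, DR-AL against DR). With DESeq size factors 3 of 10 were called in DR against AL, Dnajb1 higher and Hspa8 and Hsp90ab1 lower. In DR against AL the balance of calls over all genes rested on the scaling, with 3140 higher and 1727 lower by library totals and 2439 higher and 2381 lower by DESeq size factors.

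In fat 7 of 10 were higher in DR than in AL, against 35.2% of the 20382 genes tested, and 1 was lower, against 10.4%. DR-AL against AL gave 8 of 10 higher, against 46% of genes, and 2 lower, against 11.9%. In DR-AL against DR 6 of 10 were higher, against 38.3%, and 2 lower, against 13.3%. These shares of all genes are so high that the counts among the 10 exceed them by less than in the colon. The median of the 10 was 0.61, 0.76 and 0.38 beside 0.23, 0.39 and 0.28 for all genes. DESeq size factors moved the median of genes that averaged 10 counts or more by -0.19, -0.34 and -0.15. They changed the calls over all genes from 7183 higher and 2113 lower to 5342 and 3383 in DR against AL, from 9384 and 2418 to 6817 and 5029 in DR-AL against AL, and from 7816 and 2701 to 6434 and 3788 in DR-AL against DR. On the deposited FPKM scale the same median moved by -0.70, -1.52 and -0.82, because the ratio of FPKM to CPM, relative to the other libraries, was 0.845, 0.512 and 0.275 in the fat libraries. Of the 10, DESeq size factors left 5 higher and 1 lower in DR against AL, 5 higher and 2 lower in DR-AL against AL, where Hspa8, Hsp90ab1 and Hspb1 lost the call, and 4 higher and 2 lower in DR-AL against DR. The FPKM scale with a pseudocount of 0.1 gave 1 higher and 4 lower, 0 higher and 6 lower, and 0 higher and 6 lower. Over all genes that scale gave 3961 higher and 11002 lower, 3851 and 13444, and 3452 and 11521. With the estimated dispersion 0, 0 and 0 of the 10 were called in fat.

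In the brain few of the 10 changed. In the hypothalamus 3 of 10 were higher in DR than in AL, against 4.33% of the 19320 genes tested, and 0 lower, against 2.72%. DR-AL against AL gave 2 higher, against 6.06%, and 0 lower, against 9.02%, and in DR-AL against DR 0 were higher, against 2.82%, and 2 lower, against 6.8%. In the hippocampus 3 of 10 were higher in DR than in AL, against 1.36% of the 18804 genes tested, and 0 lower, against 2.67%. In DR-AL against AL 3 were higher, against 3.99%, and 0 lower, against 2.16%, and in DR-AL against DR 0 were higher, against 3.63%, and 0 lower, against 1.26%. The genes called in the brain were Hspa1a, Hspa1b, Dnajb1 and Hspb1. With the estimated dispersion 1 call was kept in each brain tissue, Hspa1b in DR against AL in the hypothalamus and Hspb1 in DR-AL against AL in the hippocampus.

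**Figure D1:**
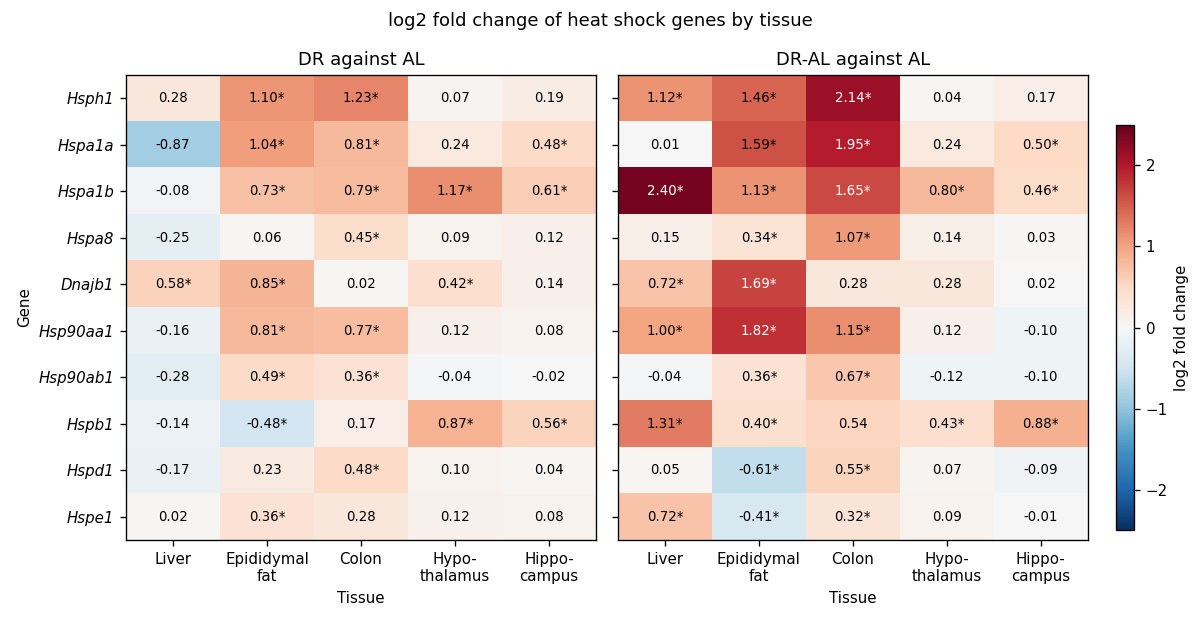
Heat maps of the log2 fold change of the 10 genes (rows) in the 5 tissues (columns), DR against AL on one side and DR-AL against AL on the other, which share the AL library of each tissue. An asterisk marks a called change, and the strongest values are those of Hspa1b in DR-AL liver (2.40) and Hsph1 in DR-AL colon (2.14), while the fat column goes with the scale limits given for that tissue, where Hsph1 in DR-AL is -0.14 on the FPKM scale.

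In the colon Hsph1 had 481, 1417 and 2003 counts, or 18.1, 42.4 and 80.0 CPM. DR stood above AL and DR-AL above DR, with counting intervals that did not overlap. The ratio of DR to AL was 2.34 (interval 2.11 to 2.60, log2 1.23), that of DR-AL to AL 4.42 (4.00 to 4.89, log2 2.14) and that of DR-AL to DR 1.89 (1.76 to 2.02), all called higher. In the liver Hsph1 had 1125, 1199 and 2419 counts, or 45.5, 55.1 and 98.8 CPM. DR and AL differed there by less than the fold required (log2 0.28), and DR-AL rose to 2.17 times AL (2.02 to 2.33) and 1.79 times DR (1.67 to 1.92). In bulk tissue fewer cells of a type and less RNA per cell cannot be told apart.

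In fat Hsph1 had 461, 860 and 1321 counts, or 17.6, 37.7 and 48.3 CPM. DR was 2.14 times AL (1.91 to 2.40) and DR-AL 2.75 times AL (2.47 to 3.06) by CPM, but on the FPKM scale with a pseudocount of 0.1 DR-AL was below AL, at a log2 fold change of -0.14. Relative to the median of genes averaging 10 counts or more, its log2 fold change against AL by CPM was 0.86 for DR and 1.12 for DR-AL. In the hypothalamus Hsph1 stood at 312, 328 and 321 CPM and in the hippocampus at 268, 305 and 301 CPM. The largest log2 fold change of Hsph1 against AL in the brain was 0.19, in DR hippocampus, and none was called by CPM. On the FPKM scale with a pseudocount of 0.1 its values in DR and DR-AL hippocampus against AL were 0.33 and 0.36, both called higher, and with a pseudocount of 1 only that of DR-AL was called.

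**Figure D2:**
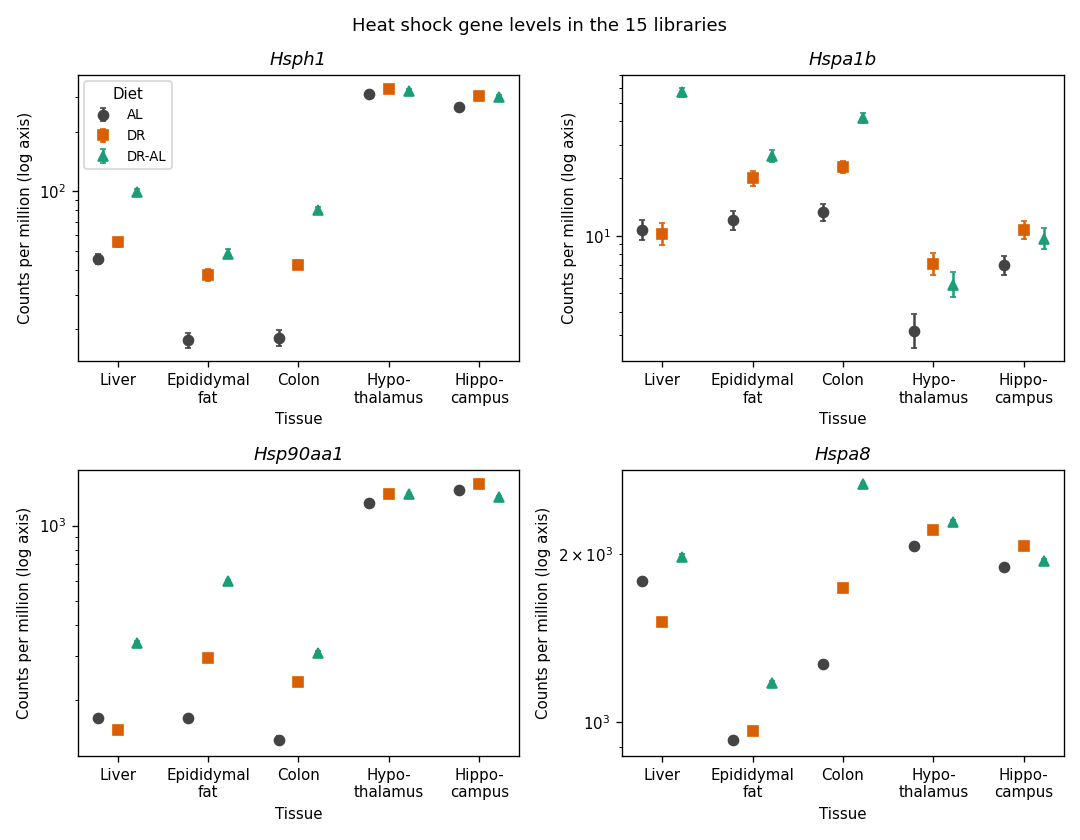
Levels in CPM (log axis) of Hsph1, Hspa1b, Hsp90aa1 and Hspa8 in the 15 libraries, grouped by tissue with 1 point per diet and bars for the exact Poisson 95% interval. In the colon each gene stands higher in DR than in AL and higher again in DR-AL, as Hsph1 does at 18.1, 42.4 and 80.0 CPM, while its 3 hypothalamus libraries sit between 312 and 328 CPM.

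Hspa1a and Hspa1b are neighbouring copies on chromosome 17 (34969359 to 34972156 and 34956429 to 34959238 of GRCm38, minus strand) that encode the inducible HSP70, the classic readout of HSF1. The copies are so alike that reads may have been shared between them, so the division of counts between them is uncertain and their sum is given first. In the liver the sum was 281, 229 and 1406 counts, or 11.4, 10.5 and 57.4 CPM. DR-AL was the high library, at 5.05 times AL (4.44 to 5.76) and 5.46 times DR (4.74 to 6.30), and DR was not distinguishable from AL at this depth, at 0.926 times (0.774 to 1.11). Nearly all of it was assigned to Hspa1b, which rose in DR-AL against AL by 2.40 on the log2 scale, the largest change of the 10 genes against AL, while Hspa1a had 15, 7 and 15 counts.

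The colon had 445, 973 and 1381 summed counts of the pair, or 16.8, 29.1 and 55.1 CPM. DR was 1.74 times AL (1.55 to 1.95) and DR-AL 3.29 times AL (2.96 to 3.67), and each copy was called higher in both. Fat had 439, 677 and 1108 counts, or 16.7, 29.7 and 40.5 CPM. The sum in fat was 1.77 times AL in DR (1.57 to 2.0) and 2.42 times AL in DR-AL (2.16 to 2.71) by CPM, whereas on the FPKM scale Hspa1b in DR was at log2 -0.16 and Hspa1b and Hspa1a in DR-AL were at -0.50 and -0.048 against AL.

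The largest change against AL in the brain was that of Hspa1b. The hypothalamus had 323, 532 and 457 summed counts, or 10.9, 16.2 and 14.6 CPM, with DR 1.49 times AL (1.30 to 1.72) and DR-AL 1.35 times AL (1.16 to 1.56). Hspa1b carried this, at 3.17, 7.15 and 5.54 CPM, rising in DR by 1.17 and in DR-AL by 0.80 against AL on the log2 scale, while Hspa1a stood at 7.72, 9.10 and 9.10 CPM and was not called. The hippocampus had 555, 626 and 481 counts, or 13.7, 20.05 and 19.1 CPM. There DR was 1.46 times AL (1.30 to 1.64) and DR-AL 1.40 times AL (1.23 to 1.58), with both copies called higher in both comparisons.

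Hspa8 (chromosome 9, 40801276 to 40805202, plus strand) encodes the HSP70 that cells make without stress and had the highest CPM of the 10 in all libraries but AL hippocampus and DR fat, where Hsp90ab1 was higher. In the colon it stood at 1272, 1734 and 2661 CPM from 33778, 57954 and 66650 counts. DR and DR-AL were above AL, at 1.36 times (1.34 to 1.38) in DR and 2.09 times (2.06 to 2.12) in DR-AL. In the liver it was 1787, 1507 and 1977 CPM, and DR-AL against DR was called higher at 1.31 times, but neither differed from AL by the fold required. In fat it was 927, 964 and 1172 CPM and DR-AL was called higher at 1.26 times AL, a log2 fold change of 0.34 that was 0.00 relative to the median of genes averaging 10 counts or more and -1.29 on the FPKM scale. The hypothalamus held 2068, 2206 and 2283 CPM and the hippocampus 1896, 2062 and 1938 CPM, with no call.

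Dnajb1 (chromosome 8, 83608175 to 83612653, plus strand), the J-protein that works with inducible HSP70, followed another pattern. In the colon it stood at 65.1, 66.2 and 79.2 CPM with no call, while the HSP70 pair rose there. On the FPKM scale, at 33.6, 34.6 and 42.0 FPKM, DR-AL was called higher than AL with a pseudocount of 0.1 but not of 1. In the liver it was 21.3, 32.0 and 35.2 CPM from 528, 697 and 863 counts. DR was already 1.5 times AL (1.34 to 1.68), close to DR-AL at 1.65 times (1.48 to 1.84). In fat it was 29.6, 53.4 and 95.5 CPM, with DR 1.80 times AL (1.65 to 1.97) and DR-AL 3.22 times (2.97 to 3.50) by CPM, whereas on the FPKM scale it was 8.997, 9.49 and 9.54 FPKM with no call. In the hypothalamus it was 55.3, 73.7 and 67.3 CPM, called higher in DR at 1.33 times AL, and in the hippocampus 48.5, 53.3 and 49.1 CPM with no call.

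Of the HSP90 pair, the inducible Hsp90aa1 (chromosome 12, 110691036 to 110696395, minus strand) had larger changes than the constitutive Hsp90ab1 (chromosome 17, 45567778 to 45573261, minus strand) in the colon against AL and in the liver in the comparisons with DR-AL. In the colon Hsp90aa1 stood at 139, 237 and 309 CPM and Hsp90ab1 at 782, 1003 and 1247 CPM. Both rose in both comparisons with AL, Hsp90aa1 by 0.77 and 1.15 and Hsp90ab1 by 0.36 and 0.67 on the log2 scale. The call of Hsp90ab1 in DR was lost on the FPKM scale with either pseudocount or rescaled, at a fold of at least 2 and in both edgeR exact tests. In the liver Hsp90aa1 stood at 169, 151 and 338 CPM, so that DR-AL was 1.99 times AL (1.92 to 2.07) and 2.23 times DR (2.14 to 2.33). Hsp90ab1 stood at 958, 788 and 934 CPM in the liver and was called in none of the comparisons.

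In fat Hsp90aa1 stood at 169, 296 and 599 CPM. DR-AL was 3.54 times AL (3.42 to 3.66) by CPM, or 1.49 on the log2 scale relative to the median of genes averaging 10 counts or more, but on the FPKM scale fat stood at 42.1, 46.0 and 48.9 FPKM with no call. Hsp90ab1 in fat was 703, 985 and 900 CPM, called higher in DR and DR-AL by CPM but at log2 -0.30 and -1.27 against AL on the FPKM scale. In the hypothalamus Hsp90aa1 stood at 1226, 1331 and 1336 CPM and in the hippocampus at 1389, 1472 and 1297 CPM, all above the highest level outside the brain, 599 CPM in DR-AL fat, with no call for either HSP90 gene.

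Hspb1 (chromosome 5, 135887919 to 135889563, plus strand), known as HSP25 in the mouse, was called in opposite directions in different tissues, a difference that was not tested. By CPM it was most abundant in fat, where it stood at 68.8, 49.4 and 90.9 CPM from 1805, 1128 and 2487 counts. DR was below AL at 0.718 times (0.666 to 0.774), and DR-AL was above AL at 1.32 times (1.24 to 1.40) by CPM, where the FPKM scale gave a log2 fold change of -1.20 for DR-AL. On that scale the liver, at 65.0, 51.1 and 159 FPKM, was above fat, at 62.8, 25.6 and 27.2 FPKM, in each diet. In the liver it was 19.3, 17.5 and 47.8 CPM, not called in DR and 2.48 times AL (2.22 to 2.76) in DR-AL, but with either pseudocount on the FPKM scale DR was called lower than AL, at log2 -0.34. The brain held low levels, 3.91, 7.18 and 5.26 CPM in the hypothalamus and 3.23, 4.77 and 5.96 CPM in the hippocampus. DR and DR-AL were called higher than AL in both brain tissues, at 1.84 times (1.46 to 2.31) for DR in the hypothalamus and 1.84 times (1.45 to 2.35) for DR-AL in the hippocampus. In the hypothalamus the 7 smooth muscle markers, with Acta2 at 10.4, 28.0 and 13.3 CPM, summed to 34.8, 82.9 and 47.0 CPM, and 5 of 7 were called higher in DR and 3 of 7 in DR-AL against AL. In the hippocampus they summed to 48.3, 53.5 and 66.8 CPM, with Acta2 at 15.2, 18.2 and 22.9 CPM, and 1 of 7 and 5 of 7 were higher. The 5 red blood cell markers, on 3 loci, were called lower than AL in both groups and both tissues, 5 of 5, at sums of 82.2, 42.2 and 26.9 CPM in the hypothalamus and 45.3, 23.2 and 21.9 CPM in the hippocampus, with the locus of Hba-a1 and Hba-a2 at 50.7, 25.6 and 16.6 CPM and at 26.6, 13.4 and 12.5 CPM. The part of vessels and blood in the brain values of Hspb1 was not tested. In the colon Hspb1 had 24, 34 and 33 counts, too few to show a difference of this size. On the FPKM scale, at 1.53, 1.91 and 2.38 FPKM, DR-AL was called higher than AL with either pseudocount and rescaled, without the Z test.

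Hspd1 and Hspe1 encode HSP60 and HSP10, the chaperonin of the mitochondrial matrix, and lie head to head on chromosome 1 (55077833 to 55088243, minus strand, and 55088148 to 55091317, plus strand). The table gives both loci the same coordinates on its own build, and although the methods describe stranded libraries and alignment by orientation, the table does not say whether its counts were divided by strand, so how well the pair is separated is not known. In fat Hspd1 stood at 281, 330 and 185 CPM and Hspe1 at 65.6, 84.1 and 49.3 CPM. DR-AL was the low library for both, at 0.657 times AL (0.634 to 0.681) for Hspd1 and 0.753 times (0.700 to 0.809) for Hspe1, opposite to the other 8 genes by CPM. The 11 other mitochondrial chaperones and proteases included 6 that fell in DR-AL against DR in fat, and 1 that rose, where 13.3% of all genes were lower and 38.3% higher, but in DR-AL against AL 1 fell and 1 rose, beside 11.9% and 46% of all genes. Among those that fell against DR was Hspa9, the mitochondrial HSP70, at 423, 630 and 366 CPM.

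In the colon Hspd1 was 143, 199 and 209 CPM and rose in DR and DR-AL by 0.48 and 0.55 on the log2 scale, and Hspe1 was 45.6, 55.5 and 57.0 CPM, called in DR-AL at a log2 fold change of 0.32 against AL, at the threshold, a call that was lost when library totals left out the 10 most abundant genes, at a fold of at least 2 and in both edgeR exact tests. In the liver Hspe1 was 151, 153 and 248 CPM and rose in DR-AL to 1.64 times AL (1.58 to 1.71), while Hspd1 stood at 441, 392 and 456 CPM without a call. Neither was called in the hypothalamus, where Hspd1 ranged from 211 to 225 CPM, or in the hippocampus, where it ranged from 174 to 191 CPM.

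The genes that work with HSP70 and HSP90 in the cytosol were followed as lists. In DR and DR-AL against AL, these counts stand beside 9.04% and 5.83% of all genes higher in the colon, 18% and 15% in the liver and 35.2% and 46% in fat. Of 10 HSP90 co-chaperones, the colon had 7 higher and 0 lower in each comparison with AL. The largest changes were those of Chordc1 (26.4, 48.0 and 52.1 CPM), of Stip1, the adaptor that passes clients from HSP70 to HSP90 (46.5, 67.2 and 85.5 CPM), and of Cacybp (29.4, 42.0 and 49.8 CPM). The liver had 4 higher and 0 lower in DR, with Fkbp5, a target of the glucocorticoid receptor, at 62.1, 141 and 57.2 CPM, and 6 higher and 2 lower in DR-AL, with Ptges3 at 136, 153 and 276 CPM. Fat had 7 higher and 0 lower in each, and in the brain 0 of 10 were called against AL. The median log2 fold change of the list in the colon was 0.43 and 0.58, beside 0.00 and -0.01 for all genes.

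Of 8 other J-proteins of the cytosol, 3 rose and 0 fell in the colon in each comparison with AL, and Dnaja1 was among them at 110, 171 and 229 CPM. The liver had 2 and 3 higher and fat 4 and 5, with 0 lower in either, which in fat is not far above the shares of all genes. Of 8 nucleotide exchange factors and regulators of HSP70, the colon had 3 higher in DR and 2 in DR-AL, including Bag3 at 47.5, 69.3 and 63.7 CPM and St13 at 76.7, 104 and 119 CPM. The list went both ways in the liver, with Bag3 at 30.5, 48.7 and 49.2 CPM and Bag4 at 48.3, 29.7 and 52.0 CPM. It also did in fat, with Bag3 at 75.2, 103 and 96.2 CPM and Bag4 at 83.7, 83.2 and 64.7 CPM. Of the 8 subunits of the cytosolic chaperonin CCT, 3 and 2 rose in the colon, 0 and 2 in the liver, and 4 and 7 in fat. Hsf1 itself, the factor that drives these genes on heat, was 16.3, 19.9 and 21.8 CPM in the colon and called higher in DR-AL, and in the liver it was 12.6, 19.4 and 10.6 CPM and called higher in DR, in which the HSP70 pair was not.

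Of the 8 other HSP110 and HSP70 genes, 4 were higher and 1 lower in fat in DR-AL against AL, close to the shares over all genes of 46% and 11.9%. In DR against AL the shares were 35.2% and 10.4%. There Hspa4 (108 and 142 CPM in AL and DR), Hspa13 (26.3 and 36.1) and Hspa14 (27.0 and 36.7) rose past the fold required. So did the 3 genes named next, while Hspa12b stood lower, at 94.6 and 47.2 CPM. The largest changes were those of Hspa1l (2.94, 24.5 and 124 CPM), Hspa2 (13.2, 66.3 and 251 CPM) and Hspa4l (19.9, 56.1 and 187 CPM), of which Hspa1l and Hspa2 are known for expression in male germ cells. These 3 stood beside the 7 testis germ cell markers, which summed to 3.55, 575 and 2942 CPM in the same libraries, and the part of germ cell RNA in the fat values of the 10 genes was not tested. In the colon, where the 7 germ cell markers summed to 0.452, 0.0598 and 0.679 CPM, 2 of the 8 rose in DR-AL, among them Hspa4, the closest relative of Hsph1, at 143, 195 and 188 CPM.

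Chaperones of the endoplasmic reticulum, which are driven by the unfolded protein response rather than by HSF1, also had calls in these tissues. Of 15 tested, the colon had 10 higher and 0 lower in each comparison with AL, the liver 7 and 9 higher with 0 lower, and fat 8 higher and 1 lower in DR and 12 higher and 0 lower in DR-AL, beside the shares of all genes given above. Hspa5, the HSP70 of that compartment, stood at 318, 514 and 669 CPM in the colon, 639, 842 and 1040 CPM in the liver and 328, 437 and 612 CPM in fat. Hyou1, its HSP110 partner, stood at 53.6, 83.1 and 111 CPM in the colon. The hypothalamus had 1 and 0 of 15 higher, against 4.33% and 6.06% of genes, and the hippocampus 2 and 4, against 1.36% and 3.99%, where Hspa5 was 216, 276 and 294 CPM.

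The genes whose pattern over the 15 libraries was most like that of Hsph1, after the mean of each tissue was subtracted, were Stip1 (Pearson r 0.963), Hsp90b1 (0.95), Hspa5 (0.944), Ubxn4 (0.923) and Wdr77 (0.921), of 7375 genes with at least 5 CPM on average in every tissue. Hsp90b1, the HSP90 of the endoplasmic reticulum, stood at 333, 475 and 526 CPM in the colon. Of the 10 genes themselves, Hsp90aa1 ranked 11 (0.892), Hspa8 25, Hsp90ab1 53, Hspa1b 61 and Dnajb1 305, while Hspe1 ranked 1913 and Hspd1 3034. Hspa1a and Hspb1 were below the minimum level. These correlations describe 15 libraries from the same 3 groups of mice and carry no test.

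To ask which changes held across tissues, all 15 libraries were fitted with edgeR with tissue as a term, so that the 5 tissues stood as repeats although they came from the same mice. At an adjusted p under 0.05, 0 of 10 genes were called in each contrast. In DR against AL 0.00572% of the 17476 genes tested were higher and 0.00572% lower, in DR-AL against AL 0.00572% were higher and 0% lower, and in DR-AL against DR 0.00572% were higher and 0.00572% lower. The lowest adjusted p of the 10 in edgeR was 0.852, in DR-AL against AL, and in that contrast it was 0.0863 by DESeq2 and 0.398 by edgeR when every gene with at least 1 count was tested. At an unadjusted p under 0.05 edgeR gave 0, 6 and 0 of 10 in the 3 contrasts and DESeq2 0, 6 and 1, with 0 of 10 by DESeq2 after adjustment, where over all 17476 genes edgeR gave 657, 862 and 656. Over all 21196 genes DESeq2 gave 1023, 1309 and 969 unadjusted. After adjustment DESeq2 gave 5 genes higher and 17 lower, 11 and 11, and 5 and 12. The 6 in edgeR were Hsph1, Hspa1a, Hspa1b, Dnajb1, Hsp90aa1 and Hspb1 in DR-AL against AL, and this count was 3 (Hsph1, Hspa1b and Dnajb1) without the colon and 1 (Hspa1b) without the tissue term. Over all genes the count in that contrast was 1253 of 18309 without the colon and 70 of 16381 without the tissue term. The fitted log2 fold change of Hsph1 was 0.46 in DR and 0.91 in DR-AL, and that of Hspa1b in DR-AL was 1.32.

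Promoter windows of 7 of the 10 genes were found in the RefSeq set for GRCm38.p6, 10 windows in all, each from 250 bases before to 50 after a start; Hspa8, Hsp90aa1 and Hsp90ab1 were not in it. Heat shock elements were sought as pairs of units, GAANNTTC or TTCNNGAA, and as 3 units in a row, GAANNTTCNNGAA or TTCNNGAANNTTC, which contain the pairs; GAANNTTC and TTCNNGAA read the same on both strands, and the longer forms are each other's complement. A pair was present in 6 of the 7 genes, all but Dnajb1, and in 17.0% of the 27025 genes with a window. By window it was 7 of 10, 1 window of Hspd1 and both of Dnajb1 having none, against 15.1% of 32851. A run of 3 units was present in Hsph1, Hspd1 and Hspe1, and in 0.662% of all genes. CCAAT on either strand was present in 5 of the 7 and in 41.1% of all genes. Such matches describe the sequence and do not show that a factor binds.

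A window is printed for each of the 7 genes, with 1 for the shared stretch of Hspd1 and Hspe1 and with the heat shock units in capitals. In the printed window of Hsph1, at chr5:149636287-149636586 on the minus strand, a pair begins 33 bases before the start and the run of 3 units lies 36 bases after it. The other window of Hsph1, at chr5:149636266-149636565, has another start. There the same pair begins 54 bases before the start and the run lies 15 bases after it. Hspa1a at chr17:34972107-34972406 and Hspa1b at chr17:34959189-34959488, both on the minus strand, differ at 4 positions of the window and hold the same pair 104 bases before the start. Hspb1 at chr5:135887669-135887968 on the plus strand holds pairs 117 and 97 bases before the start. The window of Hspe1 at chr1:55087898-55088197 on the plus strand shares 285 bases with that of Hspd1 on the other strand, so that its 4 units, from 89 bases before the start, belong to both genes. Dnajb1 at chr8:83607925-83608224 on the plus strand holds no such pair, which says only that these letters are not in the window.
Hsph1: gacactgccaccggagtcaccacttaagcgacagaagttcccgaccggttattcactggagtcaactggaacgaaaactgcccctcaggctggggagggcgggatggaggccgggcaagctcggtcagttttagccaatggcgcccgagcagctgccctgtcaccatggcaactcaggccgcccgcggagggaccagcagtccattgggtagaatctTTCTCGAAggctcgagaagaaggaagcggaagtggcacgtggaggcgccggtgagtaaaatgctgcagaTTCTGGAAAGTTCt
Hspa1a: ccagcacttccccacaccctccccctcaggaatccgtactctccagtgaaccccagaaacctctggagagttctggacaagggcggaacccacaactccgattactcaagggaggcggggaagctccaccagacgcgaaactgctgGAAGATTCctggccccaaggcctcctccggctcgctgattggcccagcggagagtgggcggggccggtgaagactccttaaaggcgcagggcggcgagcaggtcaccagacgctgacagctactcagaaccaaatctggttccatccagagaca
Hspa1b: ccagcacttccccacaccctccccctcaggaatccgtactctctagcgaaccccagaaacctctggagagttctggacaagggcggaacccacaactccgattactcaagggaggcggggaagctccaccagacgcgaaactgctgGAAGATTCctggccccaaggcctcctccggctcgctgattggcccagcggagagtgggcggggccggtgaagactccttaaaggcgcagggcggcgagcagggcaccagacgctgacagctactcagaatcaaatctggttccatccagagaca
Hspb1: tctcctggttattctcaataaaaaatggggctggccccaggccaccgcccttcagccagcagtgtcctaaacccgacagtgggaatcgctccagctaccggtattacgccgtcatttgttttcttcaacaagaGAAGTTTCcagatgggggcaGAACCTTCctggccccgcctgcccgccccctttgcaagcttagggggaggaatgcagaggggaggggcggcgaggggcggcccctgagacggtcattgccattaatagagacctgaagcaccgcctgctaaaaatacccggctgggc
Hspe1: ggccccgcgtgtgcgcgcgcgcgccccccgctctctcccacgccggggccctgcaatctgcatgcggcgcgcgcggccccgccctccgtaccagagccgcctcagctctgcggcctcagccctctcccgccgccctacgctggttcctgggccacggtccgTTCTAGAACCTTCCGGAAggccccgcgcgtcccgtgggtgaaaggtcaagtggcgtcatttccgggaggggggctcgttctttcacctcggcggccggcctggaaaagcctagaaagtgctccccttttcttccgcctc
Dnajb1: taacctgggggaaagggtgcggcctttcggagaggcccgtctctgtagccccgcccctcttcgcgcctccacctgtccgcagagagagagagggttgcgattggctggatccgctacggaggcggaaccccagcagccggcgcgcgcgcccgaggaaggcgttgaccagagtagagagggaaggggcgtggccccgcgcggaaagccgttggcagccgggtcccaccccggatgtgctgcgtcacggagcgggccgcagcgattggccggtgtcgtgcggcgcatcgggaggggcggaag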

How the data were processed

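Counts and FPKM per locus were used for 15 libraries of RNA pooled from 5 mice each. The authors deposited counts without normalization. The deposited FPKM are scaled by length and library, by a step between libraries that is not stated. The submitters' processing notes name mm9 and DESeq2, the study's methods name mm10, and the locus positions differ from those of GRCm38 (mm10), so the coordinates printed here are those of GRCm38. Unnamed loci, 0.258% to 1.39% of counts, were left out. Genes with at least 1 count in a tissue were tested by the Z test of the methods on square roots of scaled counts, with Benjamini-Hochberg adjustment over all genes. Log2 fold changes use a pseudocount of 0.5. Tested on data simulated with counting error alone, the Z test was slightly liberal for genes of few counts. The simulation held no variation between mice or pools, so it does not give the error rate in these libraries. The fit across tissues used edgeR 4.0.16 (quasi-likelihood, TMM, filterByExpr) and DESeq2 1.42.0 in R 4.3.3, and other steps python 3.11.15. The members and gene lists were chosen with earlier results of these data known. Named genes are the 10 members, up to 3 genes per list, tissue and comparison with the largest called change and a mean of at least 100 counts, the 5 genes most like Hsph1, and the most abundant marker of each list over a tissue's 3 libraries. A few further genes are named where a list went both ways or its comparisons differed. Alternatives changed the scaling, the filter, the variance, the fold, the counts to FPKM, the terms of the fit, and left out each tissue.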

Additional observations from a re-analysis of the deposited data

Results flagged for a closer look

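In 6 cases a gene was called higher in at least 1 tissue and lower in another in the same comparison, and each is given by the tissues with its highest and lowest called value. Each tissue and diet was 1 library of pooled RNA, and these differences were not tested over animals. In DR against AL, the log2 fold change of Hspb1 was 0.87 in the hypothalamus and -0.48 in fat, a difference of 1.35. In DR-AL against AL, that of Hspd1 was 0.55 in the colon and -0.61 in fat, a difference of 1.16. For Hspe1 in the same comparison it was 0.72 in the liver and -0.41 in fat, a difference of 1.13. In DR-AL against DR, Hspa1b stood at 2.47 in the liver and -0.37 in the hypothalamus, a difference of 2.84, and Hspb1 at 1.45 and -0.45, a difference of 1.90. Hspe1 in that comparison stood at 0.70 in the liver and -0.77 in fat, a difference of 1.46. The hypothalamus values of Hspb1 and Hspa1b in DR-AL against DR rest on 164 against 235 counts and 173 against 234 counts. The call of Hspb1 there was lost at a fold of at least 2 and in both edgeR exact tests. That of Hspa1b was lost with DESeq size factors, on the FPKM scale with either pseudocount, at a fold of at least 2, in both edgeR exact tests and in the sum of Hspa1a and Hspa1b, which had a ratio of 0.901 (0.794 to 1.02). At a fold of at least 2 and in both exact tests, other calls listed here were lost too. They were Hspb1 in hypothalamus and fat in DR against AL, and Hspd1 in colon and Hspe1 in fat in DR-AL against AL. Of all the values listed, only Hspa1b in the liver was called with the estimated dispersion.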

How the results depend on the processing

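Counts of the 10 members called are given below for DR against AL, DR-AL against AL and DR-AL against DR in that order, wherever they moved by more than 1.5 times. The main counts were 1, 6 and 6 in the liver, 8, 10 and 8 in fat, 7, 8 and 5 in the colon, and, for hypothalamus and hippocampus, 3, 2 and 2 and 3, 3 and 0. With a fold change of at least 2 they were 0, 3 and 3 in the liver, 2, 5 and 1 in fat, 1, 5 and 1 in the colon, 1, 0 and 0 in the hypothalamus, and 0 and 0 in the first pair of comparisons of the hippocampus. All the members called at that fold were higher. Over all genes it gave 978 higher and 469 lower, 809 and 643, and 938 and 1644 in the liver, of 17408 tested. In fat it gave 3911 and 959, 5887 and 935, and 4282 and 905, of 20382. The colon had 353 and 692, 261 and 471, and 540 and 578, of 18242. The hypothalamus had 259 and 207, 314 and 573, and 162 and 432, of 19320. The hippocampus had 62 and 183, and 164 and 138, of 18804. The exact test of edgeR with a biological coefficient of variation of 0.1 gave 0 for DR against AL in the liver, 5, 6 and 5 in fat, 3, 5 and 3 in the colon, 1, 0 and 0 in the hypothalamus, and 0 and 0 in the hippocampus. With the common dispersion taken from a tissue's 3 libraries, diet ignored, it gave 0, 0 and 1 in the liver, 0, 0 and 0 in fat, 1, 3 and 0 in the colon, 1, 0 and 0 in the hypothalamus, and 0 and 1 in the hippocampus. That estimate holds the differences between diets and was a coefficient of variation of 0.762 in fat, 0.312 in the liver, 0.164 in the colon, and 0.124 and 0.0703 in hypothalamus and hippocampus. For both exact tests the counts over all genes are not given, so these member counts do not compare the members with other genes. DESeq size factors gave 3 for DR against AL in the liver and 1 for DR-AL against DR in the hypothalamus. Over all genes they gave 2439 higher and 2381 lower in the former and 657 and 1124 in the latter. FPKM with a pseudocount of 0.1 gave 3 for DR against AL in the liver, 5 and 6 for the comparisons of fat with AL, and 1 for DR-AL against DR in the hypothalamus, and with a pseudocount of 1 gave 2, then 5, 6 and 5 in fat, and 1. Over all genes 0.1 gave 4506 higher and 4045 lower in that liver comparison and 1689 and 1829 in the hypothalamus. In fat it gave 3961 and 11002, and 3851 and 13444. A pseudocount of 1 gave 2384 and 2529 in the liver and 482 and 479 in the hypothalamus. In fat it gave 2099 and 8969, 2433 and 11719, and 1949 and 9142. FPKM divided by the library's median ratio of FPKM to CPM, an alternative chosen after seeing the data, gave 3 for DR against AL in the liver, where over all genes it gave 4799 higher and 2545 lower. Hspa1a and Hspa1b counted together, also chosen after seeing the data, gave 1 for DR-AL against DR in the hypothalamus. Beyond the construction of these alternatives, the cause was not tested. The filter of a mean of at least 10 counts and totals without the 10 most abundant genes moved none of these counts by more than 1.5 times, but with the latter the members higher in DR-AL against AL in fat went from 8 to 5, as with DESeq size factors.

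Among values called under the main setting or the alternative, directions within a tissue turned in fat on the deposited FPKM scale and under no other alternative run. Values with pseudocounts of 0.1 and 1 are given in turn. In DR against AL the log2 fold changes were -0.16 and -0.13 for Hspa1b, -0.70 and -0.69 for Hspa8, -0.30 and -0.29 for Hsp90ab1, -0.42 and -0.41 for Hspd1, and -0.34 and -0.34 for Hspe1. In DR-AL against AL they were -0.14 and -0.11 for Hsph1, -0.048 and -0.028 for Hspa1a, -0.50 and -0.38 for Hspa1b, -1.29 and -1.28 for Hspa8, -1.27 and -1.26 for Hsp90ab1, and -1.20 and -1.18 for Hspb1. In DR-AL against DR they were -0.54 and -0.45 for Hsph1, -0.18 and -0.11 for Hspa1a, -0.34 and -0.25 for Hspa1b, and -0.59 and -0.59 for Hspa8. Divided by the library's median ratio of FPKM to CPM, 0 of these values turned. That division returns the values to the CPM scale by construction, so it does not show which scale fits the fat libraries. Small values called under neither setting also changed sign, such as Hspa8 in DR against AL in fat, from 0.06 to -0.13 with DESeq size factors. Over the 5 tissues, 0 of 10 members were called by DESeq2, by edgeR with other size factors, without a filter or without a tissue term, and the range when each tissue was left out was 0 to 0. At an unadjusted p under 0.05 that range was 0 to 1, 3 to 6 and 0 to 2 in the 3 contrasts. Over all genes it was 763 to 966, 721 to 1384 and 520 to 866, of 17273 to 18472 tested. Size factors moved the median of genes averaging 10 counts or more by 0.11 in DR-AL against DR in the liver, and FPKM with 0.1 by 0.12 in both comparisons with AL in the hippocampus and by -0.10 in DR against AL in the liver.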

Other observations

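Genes of the circadian clock differed between the libraries in which the heat shock genes were compared. Of 13 clock genes, the liver had 7 higher and 2 lower in DR and 3 higher and 8 lower in DR-AL against AL, where over all genes 18% were higher and 9.92% lower in DR and 15% and 15.8% in DR-AL. Dbp stood at 57.3, 127 and 16.8 CPM in AL, DR and DR-AL liver, Per2 at 23.7, 65.9 and 9.02 CPM and Per3 at 27.9, 57.4 and 2.98 CPM. Fat had 6 higher and 1 lower in DR and 4 higher and 7 lower in DR-AL, beside 35.2% and 10.4% of all genes in DR and 46% and 11.9% in DR-AL, and Dbp there was 57.9, 127 and 15.6 CPM. The colon had 3 higher and 1 lower in DR and 3 higher and 5 lower in DR-AL, beside 9.04% and 10.6% of all genes in DR and 5.83% and 8.5% in DR-AL, with Dbp at 74.7, 97.9 and 30.9 CPM. In the brain Dbp was 40.7, 54.1 and 29.8 CPM in the hypothalamus and 31.0, 38.6 and 23.3 CPM in the hippocampus.

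Immediate early genes, which respond within minutes to many stimuli, rose in the colon in DR-AL, 7 of 10 against AL with 0 lower, where 5.83% of all genes were higher and 8.5% lower. Fos stood at 238, 275 and 423 CPM there, Fosb at 7.04, 10.6 and 22.7 CPM and Atf3 at 59.4, 76.4 and 103 CPM. In DR colon the list went both ways, as Jun stood at 238, 177 and 283 CPM and Dusp1 at 33.1, 22.9 and 51.9 CPM. In the hypothalamus 5 of 10 were higher in DR than in AL and 0 lower, beside 4.33% and 2.72% of all genes, and 2 were higher and 0 lower in DR-AL, beside 6.06% and 9.02%, with Fosb at 5.29, 11.3 and 8.17 CPM and Egr1 at 49.5, 73.0 and 58.8 CPM. In the hippocampus 5 were higher and 0 lower in DR, beside 1.36% and 2.67%, and 2 higher and 5 lower in DR-AL, beside 3.99% and 2.16%, with Fosb at 8.05, 16.9 and 15.8 CPM and Arc at 143, 186 and 110 CPM. The liver had 2 higher and 2 lower in DR and fat 2 and 5, and each had 3 higher and 0 lower in DR-AL, beside the shares for these tissues given above. Cirbp, an RNA-binding protein induced by mild cold and counted in 1 locus with 1600002K03Rik, stood at 69.6, 46.2 and 42.4 CPM in the colon, 31.2, 28.9 and 18.2 CPM in the liver and 97.8, 107 and 157 CPM in fat. Rbm3, the other cold-induced gene of the list, stood at 222, 236 and 176 CPM in the colon, called lower in DR-AL than in AL, 96.9, 89.6 and 144 CPM in the liver, called higher in DR-AL than in AL, and 181, 227 and 218 CPM in fat. The part of any of these in the values of the 10 genes was not tested.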
